A study of Homo sapiens with 47 samples.

Results

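Interferon-stimulated genes (ISGs) were followed as a group of 42 genes, chosen by name as genes that interferons induce or that sense foreign nucleic acid. All 42 were found by symbol among the 57507 genes of the expression table, and no measured value entered the choice. RNA-seq had been performed on 32 libraries of HAP1, a near-haploid human cell line derived from chronic myeloid leukaemia, and 15 libraries of HCT116, a human colorectal carcinoma line. The HAP1 libraries comprised 4 each of wild-type cells (WT), cells transfected with Cas9 but no guide RNA (EV) and 6 clones (C1 to C6) with mutated *NUP58*, which encodes a nucleoporin of the central channel of the nuclear pore. Each clone had been grown from a single edited cell and selected as viable, so that the 4 libraries of a clone are repeats of 1 clone. The HCT116 libraries comprised 4 labelled as 1 *NUP58* clone and 11 unedited controls, of which 2 were wild-type, 3 were the Cas9-only line EV1, 4 were the Cas9-only line EV2, and 2 carried a title and a genotype label that disagree. No group had been treated with interferon or infected, according to the labels and methods. Values are FPKM, fragments scaled to transcript length and library size. FPKM summed to between 604053 and 654081 per HAP1 library and between 619798 and 721992 per HCT116 library; read depth was not given. The study describes its HAP1 RNA-seq replicates as independent experiments. For HCT116 its figure legends differ, calling them biological or technical replicates. The labels do not say what a replicate number stands for.

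Type I interferons bind a surface receptor whose kinases JAK1 and TYK2 phosphorylate STAT2 and other signal transducers. With IRF9, STAT2 takes part in the complex ISGF3, which enters the nucleus and binds the interferon-stimulated response element (ISRE) in ISG promoters. Transcription factors enter through the nuclear pore on import adaptors such as the importin alpha proteins KPNA1, KPNA5 and KPNA6. Many ISGs are also transcribed at a low level without interferon, and their products sense viral RNA, halt translation or block viral entry.

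The core of the ISRE, a pair of GAAA tetramers spaced by 2 bases of any kind, was searched on both strands of RefSeq promoters (GRCh38.p14, 250 bases before to 50 after the start of a gene). Of the 42 genes, 34 matched a promoter, and 22 of the 34 (64.7%) held the core, against 996 of all 27305 promoters (3.65%). The gamma-activated site TTCNNNGAA, a second interferon-responsive element, lay in 8 of the 34 (23.5%) and in 7.88% of all promoters. The stretches below belong to genes whose levels are described in detail, and are shown because they share the element through which ISGF3 acts. Each of these promoters held 2 or 3 cores, and capitals mark 1 of them.
ISG15 (chr1:1013374-1013403, plus strand): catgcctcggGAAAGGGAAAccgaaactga
IFIT5 (chr10:89414513-89414542, minus strand): gtaagcttcaGAAACCGAAActtaatagaa
IFITM1 (chr11:314024-314053, plus strand): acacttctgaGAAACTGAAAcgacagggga
IFITM3 (chr11:320876-320905, minus strand): aaactgttgaGAAACCGAAActactgggga
BST2 (chr19:17405741-17405770, minus strand): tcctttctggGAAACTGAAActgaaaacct
IFIH1 (chr2:162318686-162318715, minus strand): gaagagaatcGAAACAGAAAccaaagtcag
IFI6 (chr1:27672329-27672358, minus strand): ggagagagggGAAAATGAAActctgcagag
HERC5 (chr4:88457035-88457064, minus strand): agctccagtgGAAAACGAAAcataatgttt
Counted from the start base of the gene as 0, the first base of the marked core lay at -113 in *ISG15*, -45 in *IFIT5*, -6 in *IFITM1* and -35 in *IFITM3*. It lay at -130 in *BST2*, -21 in *IFIH1*, -156 in *IFI6* and -74 in *HERC5*. The marked core read on the strand of the gene in 6 of these 8 genes and on the opposite strand in *IFIT5* and *HERC5*. In *IFIH1* the cores not shown, at -159 and -153, read on the opposite strand. In *ISG15* and *BST2* a further core, at -107 and -124, overlapped the marked one. No core was found in these windows of *STAT2*, *HERC6*, *DDX58* and *PARP9*. A match is a run of letters, and binding was not measured.

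*NUP58* (chromosome 13, 25301524 to 25365390) was examined first as a check of the labels. Its FPKM was 34.3, 34.7, 50.4 and 45.8 in WT and 40.3 ± 4.57 (SD, n = 4) in EV. The clone means, in the order C1 to C6, were 10.1, 9.80, 12.8, 25.5, 15.6 and 15.4. All 24 clone libraries lay below all 8 unedited ones, and the mean of the clones was lower than WT by a log2 difference of -1.48 (SE 0.131, limma adjusted p = 9.59e-09). C4 had the mildest loss, which missed the threshold on its own (log2 difference -0.66, limma adjusted p = 0.196). In HCT116 the libraries labelled as the clone had 25.3, 23.3, 44.7 and 24.3, and the controls ranged from 24.0 to 50.3. The library labelled clone replicate 3 therefore had a *NUP58* level of the controls, and the lowest control, 24.0, was the library labelled EV2 replicate 3. Results of the HCT116 clone for the members are given below with and without the libraries numbered 3.

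Under basal conditions most ISGs were transcribed at low levels in both lines. Over the 32 HAP1 libraries 24 of the 42 had a mean FPKM of at least 1, a further 9 lay between 0.1 and 1, and 9 lay under 0.1. Over the 15 HCT116 libraries the numbers were 32, 4 and 6. The antiviral genes *IFI44L*, *MX2*, *SAMD9L*, *XAF1* and *RSAD2*, averaged under 0.1 in both lines, and their highest single library reached 0.0983, 0.0213, 0.0291, 0.190 and 0.415. In HAP1 the highest mean levels were those of *BST2*, the tetherin that holds budding virus at the membrane (125.5), the RNA-editing enzyme *ADAR* (58.2), the RNA-activated kinase *EIF2AK2* (14.5), *STAT2* (12.7), the ubiquitin-like modifier *ISG15* (11.8) and *USP18*, which removes ISG15 from proteins (11.1). In HCT116 they were *IFITM3* (368.1) and *IFITM2* (101.4), which restrict viral entry, followed by *ISG15* (92.1), *ADAR* (67.0), *STAT2* (19.01) and *EIF2AK2* (16.5). The interferon genes themselves were hardly seen: of 22 type I, II and III ligand genes, 21 were listed at 0 in all 47 libraries, and *IFNE* was seen in HCT116 alone, at up to 0.306.

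**Figure D1:**
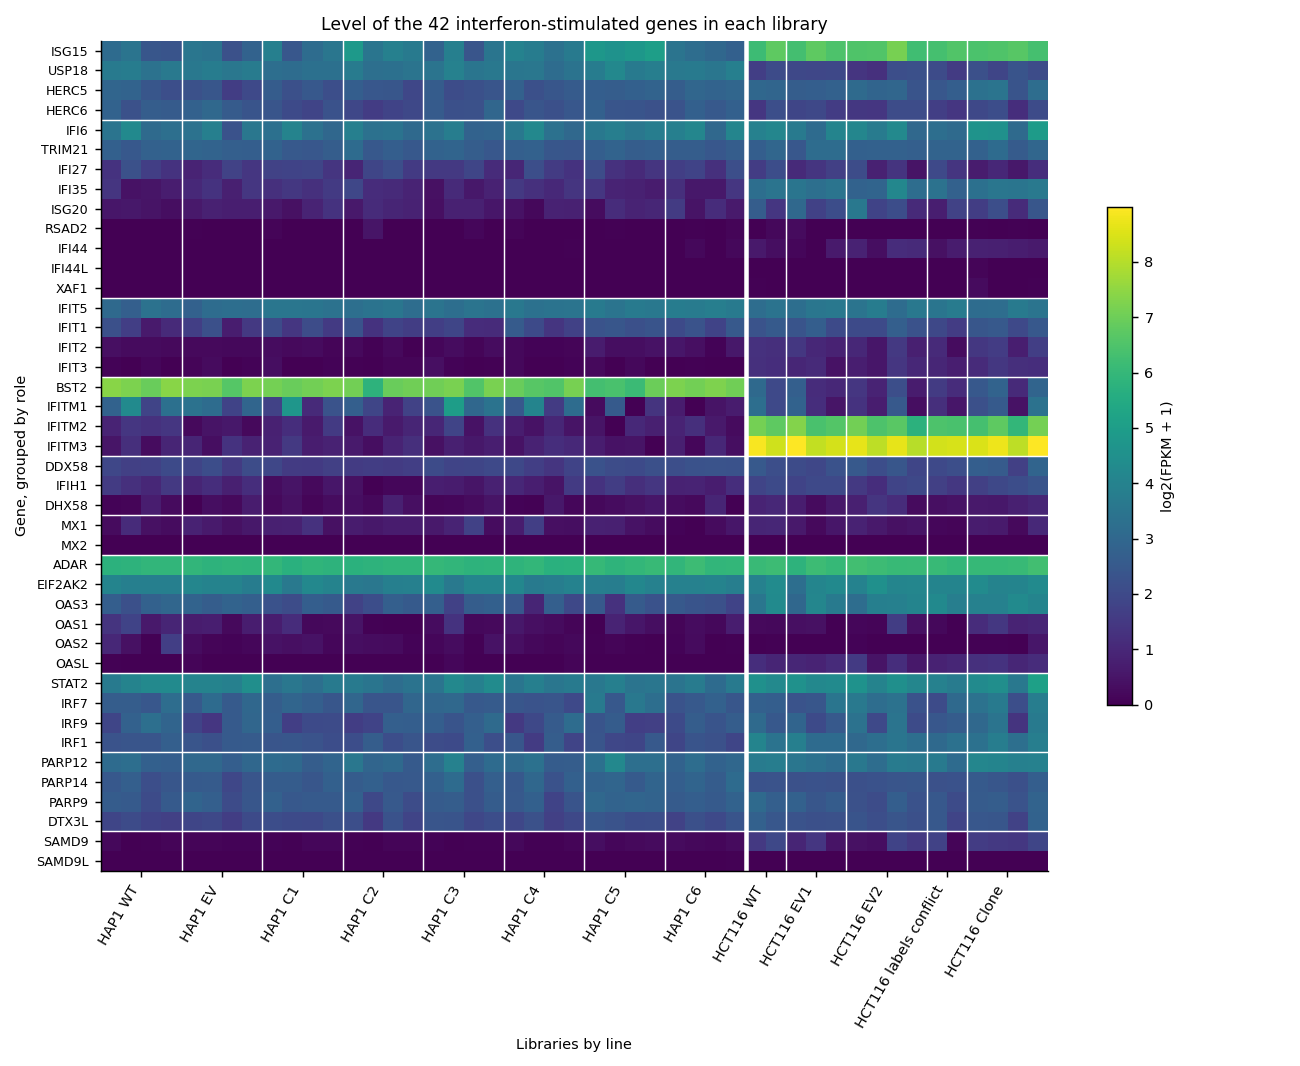
Level of each of the 42 genes (rows, grouped by role) in each of the 47 libraries (columns, grouped by line) as log2(FPKM + 1), with brighter colour for higher values. *IFITM2* and *IFITM3* are high throughout HCT116 and low throughout HAP1, *BST2* is far higher in HAP1 than in HCT116, and *IFI44L*, *MX2*, *SAMD9L*, *XAF1* and *RSAD2* are near 0 in both.

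Several members, led by *IFITM3*, *IFITM2* and *BST2*, differed between the unedited lines. Unedited HAP1 (8 WT and EV libraries) and unedited HCT116 (11 libraries) were compared for the 28 members that passed the filter of a mean FPKM of at least 1. At an adjusted p under 0.05 and a fold change over 2, 9 differed (23.8% of all 13538 genes tested), of which 3 were higher in HAP1 and 6 lower, where 12.6% and 11.2% of all genes were. Line and culture history cannot be told apart here. *IFITM2*, *IFITM3*, *ISG20* and *IFI35* passed the filter only through HCT116. The counts, and the p-values given below for these genes, are therefore a description.

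The IFITM proteins sit in membranes and stop viruses from fusing with them. *IFITM3* had 0.228 at the lowest, 0.859 at the median and 1.48 at the highest of 8 HAP1 libraries, against 259, 342 and 509 in HCT116. Its log2 difference, HAP1 minus HCT116 on the log2(FPKM + 1) scale, was -7.67 (limma adjusted p = 2.74e-21). The HAP1 libraries held 0.169 to 1.69 of *IFITM2* and the HCT116 libraries 53.3 to 158.8, a log2 difference of -5.83 (limma adjusted p = 3.91e-17). The lines did not overlap for either gene. *IFITM1*, their neighbour on chromosome 11 (310041 to 315272), went the other way: HAP1 libraries held 2.54, 7.43 and 18.7 (lowest, median, highest) and HCT116 libraries 0.262, 1.29 and 8.49, with overlap. The log2 difference was 1.47 (limma adjusted p = 0.00229). Coding sequences of *IFITM2* and *IFITM3* were 93.9% identical, with a shared run of 99 bases, and those of *IFITM1* and *IFITM3* 78.4%, so reads may be split between them.

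*BST2* (chromosome 19, 17402939 to 17405630) had 97.3, 148 and 167 at the lowest, median and highest in unedited HAP1 and 0.618, 1.68 and 7.35 in HCT116. Every HAP1 library lay above every HCT116 control, and the log2 difference was 5.53 (limma adjusted p = 1.57e-14). *USP18* was also higher in HAP1, at 11.6 ± 1.13 (SD, n = 8) against 2.64 ± 0.756 (n = 11), a log2 difference of 1.82 (limma adjusted p = 1.06e-11). Its substrate *ISG15* was lower in HAP1, at 7.02 ± 2.84 against 93.4 ± 19.6, a log2 difference of -3.62 (limma adjusted p = 2.53e-14). The pair of modifier and protease thus stood in opposite order in the lines. *IFI35*, a partner of the leucine zipper protein NMI, was at 0.999 against 9.14 (-2.34, limma adjusted p = 4.53e-11), *ISG20*, an exonuclease, at 0.536 against 3.72 (-1.40, limma adjusted p = 0.000123), and *OAS3*, which makes the second messenger that activates RNase L, at 5.66 against 13.5 (-1.08, limma adjusted p = 1.82e-06). Over the 28 tested members the median log2 difference was -0.29, with 22 below 0, and over all genes it was 0.10.

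**Figure D2:**
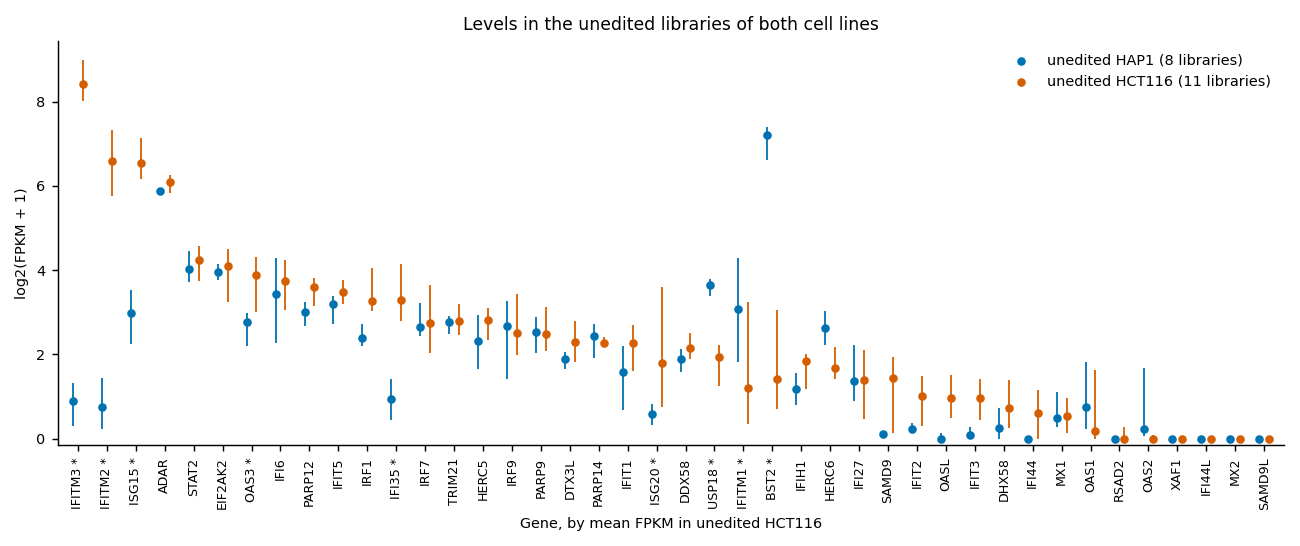
FPKM of members in unedited cells of both lines, on a log axis. Points mark the median and lines run from the lowest to the highest of 8 HAP1 and 11 HCT116 libraries, and an asterisk marks a member called different. *IFITM2*, *IFITM3* and *ISG15* lie far higher in HCT116, and *BST2* and *USP18* lie higher in HAP1.

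The comparison of the 6 HAP1 clones with WT asks whether reduced *NUP58* was accompanied by a change in basal ISG transcription. Few members differed: among 24 members tested, *IFIT5* and *ISG15* were higher and *STAT2* lower (adjusted p under 0.05), which is 3 of 24 where 6.6% of all 13180 genes were called. The members divided into 11 above and 13 below 0, with a median log2 difference of -0.02, as for all genes (-0.02). At an unadjusted p under 0.05, 7 of the 24 passed, against 20.1% of all genes.

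*IFIT5* (chromosome 10, 89414568 to 89421605), which binds RNA with 5′ phosphates, had 7.51, 5.57, 9.40 and 8.17 in WT and 5.95, 8.001, 8.59 and 8.38 in EV. Over the 24 clone libraries its lowest, median and highest values were 8.40, 10.2 and 13.3. Most clone libraries lay above all unedited ones, with overlap at the lower end of C2, C3 and C4. The log2 difference was 0.42 (SE 0.0894, limma adjusted p = 0.00357), and the exact two-sided permutation test over the 28 libraries gave p = 0.000488. It was not called without WT replicate 2, the lowest library (0.29, limma adjusted p = 0.0528), or with each line reduced to its mean, 6 clone values against those of WT and EV (0.41, limma adjusted p = 0.126).

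*STAT2* (chromosome 12, 56341597 to 56360203), the ISGF3 subunit that carries the activating domain, had 12.1, 15.4, 17.9 and 18.7 in WT and 15.3, 15.3, 14.1 and 20.9 in EV. The clones had 7.82, 10.8 and 19.3 at the lowest, median and highest. The high end came from C3, with 9.90, 17.6, 14 and 19.3, and overlapped WT, whereas C1 and C2 lay wholly below it. The log2 difference was -0.46 (SE 0.133, limma adjusted p = 0.0331; exact permutation p = 0.0065). The call was lost without WT replicate 2 (adjusted p = 0.0692), WT replicate 3 (0.136) or WT replicate 4 (0.170), without any 1 of C1, C2, C5 and C6 (0.0552 to 0.0637), and over line means (-0.48, 0.128).

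*ISG15* (chromosome 1, 1001138 to 1014540) had 7.82, 9.97, 4.33 and 4.00 in WT and 10.4, 9.76, 3.73 and 6.06 in EV. The clones spread widely, from 4.23 through a median of 11.3 to 31.6, and overlapped the unedited libraries. Its log2 difference was 0.83 (SE 0.256, limma adjusted p = 0.0466; exact permutation p = 0.0393). This call lay near the threshold and was lost without WT replicate 1 (adjusted p = 0.0725), WT replicate 3 (0.190) or WT replicate 4 (0.226), without clone C2 (0.0684), C4 (0.0601) or C5 (0.237), without any 1 of 15 other libraries of the clones and EV (0.0527 to 0.0587), with EV as the reference (0.108) and over line means (0.75, 0.337). The difference ran from 0.66 to 1.04 on leaving out 1 library.

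The rest of the group stayed within the threshold. Among transcription factors, RNA sensors and RNA enzymes, *ADAR* was 0.03, *EIF2AK2* 0.01 and *OAS3* -0.41 (limma adjusted p = 0.344) on the log2 scale. *IFIT1*, which binds incompletely capped RNA, was 0.50 (0.225), and *IFI6*, a mitochondrial and endoplasmic reticulum protein, -0.01. *BST2* was -0.36 (0.204) and *IFITM1* -1.07 (0.247). *HERC6*, a ligase of the HERC family, was -0.29 (0.226). *DTX3L*, *PARP14* and *IFI35* were 0.22, 0.25 and 0.32, all short of the threshold. With replicate number as a block, *IFITM1* was also called lower (-1.07, limma adjusted p = 0.0475, where 12.6% of all genes were called) and all 3 calls above held.

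The RNA-sensing genes *IFIH1*, *OAS1* and *OAS2*, below the filter in HAP1, were lower in the clones when the filter was lowered to a mean of 0.1, where 5.16% of 18195 genes were called. With this filter *ISG15* lost its call (limma adjusted p = 0.0564). *IFIH1* (chromosome 2, 162267074 to 162318684), the sensor MDA5 of long double-stranded RNA, had 1.95, 1.38, 0.986 and 1.78 in WT and 0.900, 1.25, 0.730 and 1.26 in EV. C1 had 0.224, 0.399, 0.160 and 0.470, and C2 had 0.328, 0.0160, 0.126 and 0.114, all below every unedited library. C3 (0.437 to 0.754) and C6 (0.658 to 1.28) lay between them and WT on average, and C4 (0.390 to 1.88) and C5 (1.31 to 2.10) overlapped WT. Its log2 difference for the mean of the clones was -0.57 (limma adjusted p = 0.00809), and for C2 alone -1.13 (0.0213, where 0.569% of genes were called). *OAS1*, an oligoadenylate synthetase, had 1.58, 2.53, 0.531 and 0.891 in WT, and its difference was -0.80 (0.0132). *OAS2* had 1.02, 0.329, 0.0359 and 2.19 in WT, with a difference of -0.59 (0.0137). EV stood nearer the clones than WT for both synthetases, at 0.528 for *OAS1* and 0.123 for *OAS2*. For *IFIH1* too EV lay below WT on average, at 0.730 to 1.26 against 0.986 to 1.95. Part of each difference from WT was therefore also present in EV.

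Each clone was then compared with the same 4 WT libraries, which the comparisons therefore share, and few members were called. None of 25 was called in C1, C2 or C3 and none of 26 in C4 by limma, where 0.479%, 0.732%, 0.0911% and 0.16% of all genes were. At an unadjusted p under 0.05 the numbers were 5, 4, 1 and 6, against 11.7%, 12.7%, 4.8% and 6.63% of all genes. With the replicate block, *ISG15* was higher (0.88, limma adjusted p = 0.0364) and *BST2* lower (-0.41, limma adjusted p = 0.0316) in C4, where 2.43% of genes were called. In EV none of 24 members was called by limma (0.038% of all genes), and *HERC5* (-0.53) alone passed an unadjusted p of 0.05 (2.08% of genes).

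In C5 *ISG15* was higher and *BST2* lower than in WT. *ISG15* had the highest level of the HAP1 lines, with 26.0, 22.9, 26.2 and 31.6. All 4 libraries lay above every WT and EV library, and the log2 difference from WT was 1.95 (limma adjusted p = 0.00152; exact permutation p = 0.0286, the smallest that 4 against 4 allow). *BST2* in C5 had 79.1, 84.2, 69.4 and 124, against 167, 148, 122 and 166 in WT. The groups overlapped through the highest C5 library, and the difference was -0.77 (limma adjusted p = 0.0280). It was not called without WT replicate 1 (adjusted p = 0.0827), WT replicate 4 (0.0867), or C5 replicate 1 (0.0834), 2 (0.0534) or 3 (0.0751). Nor was *BST2* called with EV as the reference (-0.60, limma adjusted p = 0.0593). These were 2 of 24 members tested in C5, where 7.55% of all genes were called, and 9 passed an unadjusted p of 0.05 (23.4% of genes). The 43 tested genes within 1 Mb of *BST2* had a median log2 difference of -0.24 in C5, and the 58 around *ISG15* of -0.02.

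In C6 *IFIT5* was higher and *IFITM1* lower than in WT. *IFIT5* had 12.7, 12.3, 13.3 and 11.98, above every WT and EV library, with a log2 difference of 0.67 (limma adjusted p = 0.0200; exact permutation p = 0.0286). It was not called without WT replicate 1 (adjusted p = 0.0521) or C6 replicate 1 (0.0605), 2 (0.0590) or 3 (0.0523). *IFITM1* had 0.620, 0, 0.387 and 0.627, against 6.08, 18.7, 2.59 and 9.07 in WT, so that the groups did not overlap. Its log2 difference was -2.61 (limma adjusted p = 0.00467; exact permutation p = 0.0286). These were 2 of 25 members tested, where 11.7% of all genes were called, and 6 passed an unadjusted p of 0.05 (26.4% of genes). The 35 tested genes within 1 Mb of *IFITM1* had a median of -0.11 in C6, with 5 called, and the 6 around *IFIT5* a median of -0.10.

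The differences of the 6 clones from the shared WT libraries, side by side, varied in size and, for some members, in sign. The log2 difference of *ISG15* from WT was 0.42, 1.16, 0.32, 0.88, 1.95 and 0.27 in C1 to C6, and that of *IFIT5* was 0.39, 0.27, 0.28, 0.36, 0.53 and 0.67. For *STAT2* it was -0.61, -0.62, -0.10, -0.41, -0.45 and -0.56. *IFITM1* ranged from -2.61 in C6 to 0.36 in C3. The median over the tested members was -0.10, -0.11, 0.01, -0.13, 0.13 and 0.02 in C1 to C6, and 0.02 in EV.

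**Figure D3:**
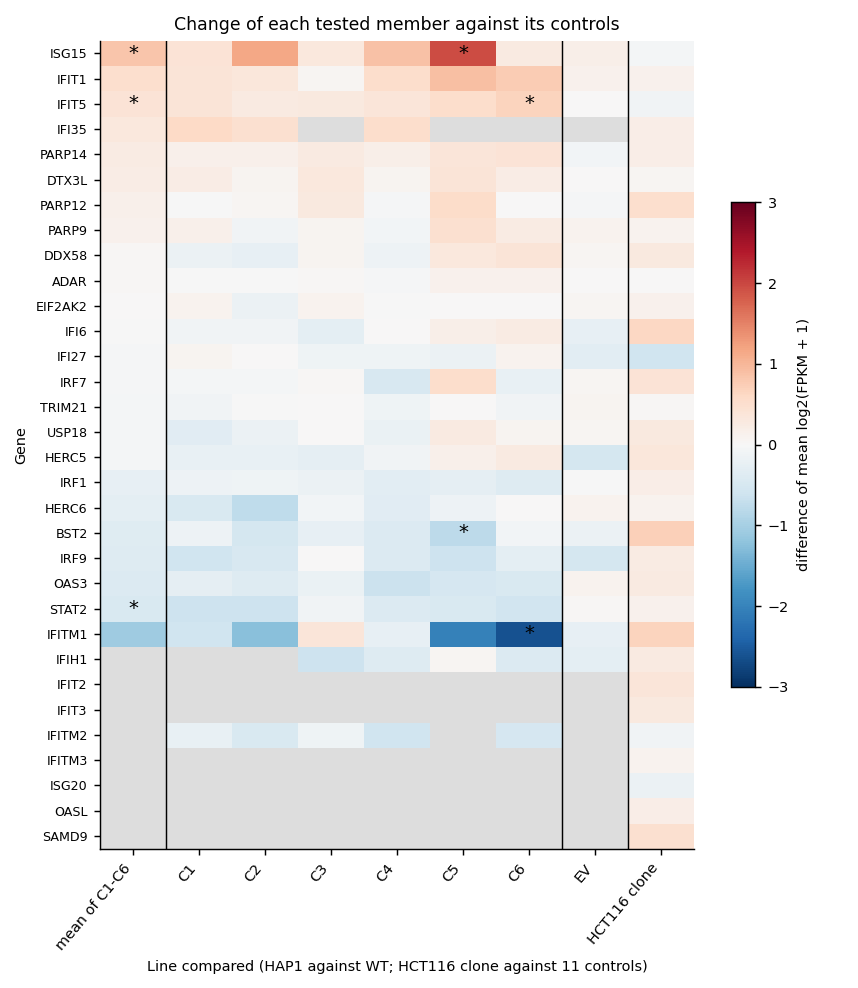
Log2 difference of each member from its control (colour, blue lower and red higher) for the mean of the clones, C1 to C6, EV and the HCT116 clone. Asterisks mark calls at an adjusted p under 0.05 and grey marks members not tested; the only single-clone calls are *ISG15* and *BST2* in C5 and *IFIT5* and *IFITM1* in C6, and the HCT116 column has none.

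When all 8 HAP1 lines were compared at once with a moderated F test, 8 of 24 members differed among lines, where 21.5% of all genes did. With replicate number as a block 13 did, where 34.9% of all genes did. The range between line means on the log2 scale was 2.96 for *IFITM1* (limma adjusted p = 0.0102), 1.95 for *ISG15* (0.00062), 0.67 for *IFIT5* (0.000555) and 0.66 for *STAT2* (0.007). The other 4 were *DDX58*, *HERC6*, *USP18* and *HERC5*. *DDX58*, the sensor RIG-I of RNA with a 5′ triphosphate, was lowest in C2, with 1.98, 2.07, 1.98 and 2.15, and highest in C6, with 3.48, 3.75, 3.89 and 3.77. WT (2.79, 2.24, 2.36 and 3.04) lay between and overlapped neither. Its range was 0.63 (limma adjusted p = 0.00312).

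The others act on ISG15 or belong to the same ligase family. *HERC6* was lowest in C2, with 2.73, 2.03, 2.52 and 2.89, and highest in EV, with 5.97, 7.19, 4.98 and 4.05, a range of 0.87 (limma adjusted p = 0.00665). *USP18* was lowest in C1, with 8.59, 8.14, 8.98 and 8.94, and highest in C5, with 12.8, 17.4, 11.6 and 13.6, a range of 0.61 (limma adjusted p = 0.0149). *HERC5*, the ligase that attaches ISG15 in human cells, was lowest in EV, with 3.69, 4.25, 2.12 and 2.96, and highest in C6, with 5.35, 6.83, 6.20 and 6.76. In each of these genes the lowest and highest line did not overlap. The *HERC5* range of 0.80 (limma adjusted p = 0.0284) was not called without EV replicate 3 (0.0688) or 4 (0.0642), C5 replicate 4 (0.0503), or C6 replicate 2 (0.0669), 3 (0.0525) or 4 (0.0623). *IRF7*, an ISG that itself drives interferon genes, had a range of 1.00 and missed the threshold (0.0502), as did *BST2* (0.77, 0.0797). Both passed with the replicate block (limma adjusted p = 0.0451 and 0.0168), as did *IFIT1* (0.0375), *PARP12* (0.0498) and *PARP14* (0.0219). With the lower filter, *IFIH1* also differed among lines (range 1.199, limma adjusted p = 1.81e-05, 17.7% of genes called).

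**Figure D4:**
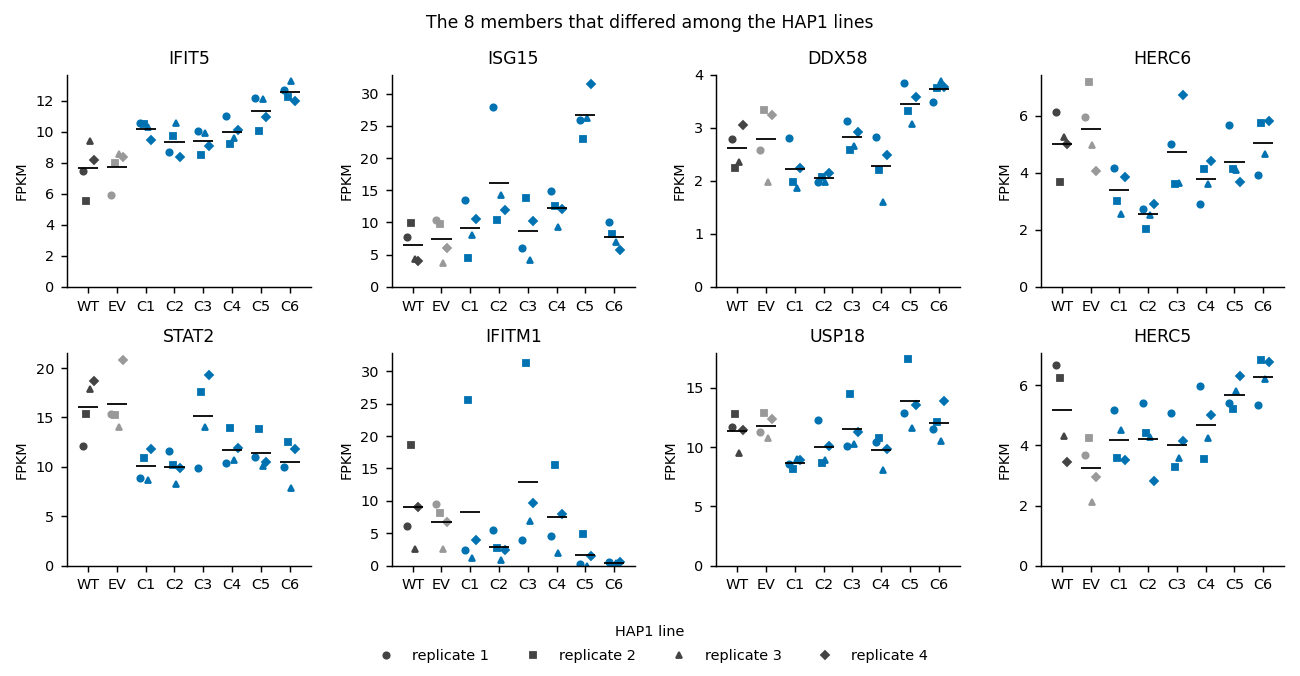
FPKM of the 8 members that differed among the HAP1 lines, in WT, EV and C1 to C6. Each point is 1 library, its shape gives the replicate number and the bar is the mean of 4; *ISG15* is highest in C5, *IFITM1* is near 0 in C6, and *STAT2* is lower in most clones than in WT and EV.

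In HCT116 the 4 libraries labelled as the clone were compared with the 11 controls. None of 32 members, and none of 12960 genes (0%), was called by limma, while 2 members and 1342 genes (10.4%) passed an unadjusted p of 0.05. The members were *PARP12*, an ADP-ribosyltransferase, and *IFI27*, a mitochondrial ISG. *PARP12* had 16.4, 15.8, 14 and 14.5 in the clone and 7.83, 11.1 and 12.96 at the lowest, median and highest of the controls. The groups did not overlap, with a log2 difference of 0.50 (limma adjusted p = 0.332; exact permutation p = 0.00293). *IFI27* was lower (-0.59, limma adjusted p = 0.453). Over the 32 members the median was 0.19, with 27 above 0, and over all genes 0.00. The SD of the library medians was 0.16 in this comparison. The share of all genes above 0 is not given, and members correlated among the controls (below), so the count is a description.

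Without the libraries numbered 3, which left 3 clone and 9 control libraries, 3 of 32 members were called, where 5.92% of 13000 genes were. *IFI6* had 23.4, 22.5 and 29.6 in the clone, 7.57 in the library labelled clone replicate 3, and 7.28, 12.5 and 17.9 at the lowest, median and highest of all controls. Its log2 difference was 0.62 with all libraries (limma adjusted p = 0.487) and 1.12 without those numbered 3 (0.0177). *HERC5* had 9.36, 10.1 and 8.29 in the clone, 4.06 in clone replicate 3, and 4.04, 5.98 and 7.53 in the controls. Its difference without number 3 was 0.61 (limma adjusted p = 0.0398). *DDX58* had 5.52, 5.03 and 6.38, 2.29 in clone replicate 3, and 2.68, 3.46 and 4.66 in the controls, with a difference of 0.58 (limma adjusted p = 0.0419).

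For these 3 genes clone replicate 3 lay among or below the controls, while the other 3 clone libraries lay above all controls. The 3 genes are named because they were called without the libraries numbered 3, so this pattern follows from the choice. The share of all genes that show it is not given. *PARP12* (0.52, limma adjusted p = 0.0503), *IRF7* (0.92, 0.0669) and *IRF9* (0.84, 0.0882) missed the threshold. Leaving out clone replicate 3 alone called *IFI6* (1.02, limma adjusted p = 0.0349) and *HERC5* (0.58, 0.0422), where 4.27% of genes were called. *OAS1*, below the filter, had 1.22, 1.78, 0.872 and 0.942 in the clone and 2.11 in EV2 replicate 3, against 0 to 0.332 in the other 10 controls. EV2 replicate 3 also held the highest *ISG15* of the controls (139). What sets the libraries numbered 3 apart was not tested.

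**Figure D5:**
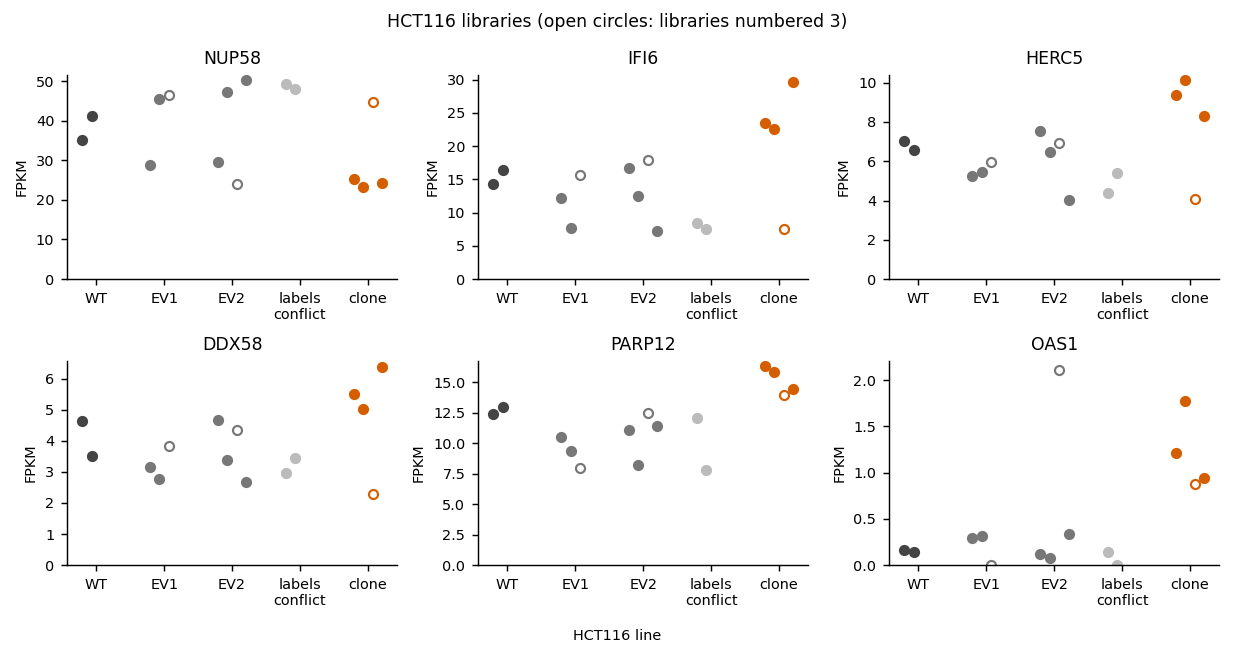
FPKM of *NUP58*, *IFI6*, *HERC5*, *DDX58*, *PARP12* and *OAS1* in the 15 HCT116 libraries, by label; open circles mark libraries numbered 3. The open circle of the clone lies with the controls for *NUP58*, *IFI6*, *HERC5* and *DDX58*, and that of EV2 lies with the clone for *NUP58* and *OAS1*.

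The clone effects in both cell lines were then tested against each other. Of 28 members, 1 differed, where 1.8% of 13629 genes did: *IFIH1* had a clone effect lower in HAP1 than in HCT116, with a difference of -0.845 (SE 0.203, limma adjusted p = 0.0171). *IFIH1* averaged 0.896 over the 32 HAP1 libraries and entered this test only through HCT116, so the call is a description. Without the HCT116 libraries numbered 3 the *IFIH1* difference was -0.85 (limma adjusted p = 0.0145), and *IFIT5* (0.64, 0.00491), *STAT2* (-0.87, 0.0154), *BST2* (-1.48, 0.0154) and *DDX58* (-0.54, 0.0373) were called as well, where 6.67% of genes were. In HCT116 *IFIH1* was 2.28, 2.85, 3.35 and 4.07 in the clone and between 1.26 and 3.05 in the controls.

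HAP1 libraries with the same replicate number varied together across the transcriptome. The number, tested with line as a factor, was associated with 52.8% of all genes and with 11 of 24 members (45.8%), a share not above that of all genes. *PARP14*, a mono-ADP-ribosyltransferase, was lowest in replicate 3 in 8 of 8 lines (range 0.52, limma adjusted p = 0.000317). *IFI6* was highest in replicate 2 in 7 of 8 lines (0.82, 0.00116) and *PARP12* in 6 (0.002). *IFITM1* was highest in replicate 2 in 5 lines and lowest in replicate 3 in 6 (1.88, 0.000646), whereas *OAS3* was lowest in replicate 2 in 6 (0.00513).

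Within HAP1 lines, correlations between members were mostly weak. Over deviations from the line means in the 32 HAP1 libraries, which share the replicate number, the median Pearson correlation of the 276 pairs of 24 members was 0.136, against 0.014 for all genes. Pairs over 0.5 made up 13.04% among the members and 12.9% among all genes. The closest pairs were *IFIT1* with *PARP9* (r = 0.754), *USP18* with *PARP12* (0.728) and *PARP9* with its partner ligase *DTX3L* (0.698). The last pair lies head to head on chromosome 3 with overlapping spans, and reads in the overlap cannot be assigned. *OAS3* ran opposite to *IFITM1* (-0.761) and *PARP12* (-0.751). Among the 11 HCT116 controls the 435 pairs of 30 members had a median of 0.204, with 24.6% over 0.5, against 0.01 and 13.7% for all genes. Without the controls numbered 3 the values were 0.187 and 26.4%, against 0.01 and 17.1%. These points share Cas9-only lines and are few.

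The genes upstream of the ISGs were examined as lists. Of 18 receptors and transducers tested, 2 were lower in the mean of the clones and none higher, where 3.43% and 3.17% of all genes were. They were *PTPN1*, a phosphatase of the receptor kinases (23.0 in WT, 16.8 in clones, -0.44, limma adjusted p = 0.00564), and the kinase *TYK2* (49.1 and 36.7, -0.42, 0.00845).

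Of 15 sensing genes tested 2 were lower: *MB21D1*, the DNA sensor cGAS (5.53 in WT, 3.30 in EV, 3.34 in clones, -0.61, limma adjusted p = 0.00293), and the nucleotide hydrolase *SAMHD1* (17.8 in WT, 14.1 in clones, -0.32, 0.0034). EV was as low as the clones for *MB21D1*. Of 26 other ISGs tested 1 was lower, the lysosomal thiol reductase *IFI30* (38.8 in WT, 17.4 in clones, -1.27, 0.0214). Among the 8 lines *IFI30* (range 1.86, limma adjusted p = 0.0149), the immunoproteasome subunit *PSMB8* (1.44, 0.0366) and *KPNA5* (1.02, 0.00222) differed by over 2-fold. None of the import adaptors *KPNA1*, *KPNA5* and *KPNA6* was called in the mean of the clones, and *KPNA5* was higher in C5 (0.88, limma adjusted p = 0.0277). In HCT116 no gene of these lists was called, but neither was any of all 12960 genes, so this tells nothing particular about the lists. Results for the lists without the libraries numbered 3 are not given.

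Cell identity was checked with marker lists. HCT116 held the epithelial markers *EPCAM* (175), *KRT8* (740), *KRT18* (484), *KRT19* (495) and *CDH1* (13.2). Of the intestinal genes, *CDX2* averaged 6.24 in HCT116 and 3.80 in HAP1, and *KRT20* averaged 0.957 in HCT116. The intestinal genes *CDX1*, *CEACAM5*, *LGALS4*, *LGR5* and *VIL1* were at or near 0 in HCT116. In HAP1 none of 12 myeloid and erythroid or 8 lymphoid markers passed the filter, and *PTPRC*, *SPI1* and *GATA1* were at 0, so the blood origin was not visible in its markers. The summed level of the 12 epithelial markers was 49.2 to 57.5 in WT, 51.3 to 66 in EV, 22.1 to 29.4 in C6 and 48.1 to 50.5 in C5, with *EPCAM* higher in C5 (log2 difference 2.97, limma adjusted p = 4.65e-05) and *KRT8* lower in the mean of the clones (-1.28). The part of this difference in the ISG values was not tested, and fewer expressing cells and less RNA per cell cannot be told apart in bulk libraries.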

How the data were processed

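The deposited table holds FPKM values per gene that the authors made from paired reads: adaptors were trimmed, reads were aligned to GRCh38 with STAR and genes were quantified with RSEM, with no further normalization between libraries. Tool versions are not given in the sources used here. FPKM keep no read counts, so counting error is unknown, and a gene listed at 0 may be a failed estimate. All 47 columns were used and matched to samples through their labels.

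Members were found by gene symbol. Values were analysed as log2(FPKM + 1), which understates the change of low genes. Only genes averaging 1 FPKM or more across the libraries compared entered the linear models (lmFit and trended eBayes of limma 3.58.1, R 4.3.3), and p-values were adjusted over all genes tested by the Benjamini-Hochberg method. A call needed an adjusted p under 0.05 and, between cell lines, a fold change over 2. Each clone and EV were fitted with WT alone, the mean of the clones and the F test over all 32 HAP1 libraries. Single genes were also tested by exact two-sided permutation of libraries, which, like the fits over libraries, treats repeats of a clone as separate units. The steps were tested on simulated data. Values in all groups are given for members called in any clone, EV or the lines, for the 6 highest members in each cell line and for the 6 called with the largest and smallest differences between cell lines; other pathway genes are named when called. The rule also names 1 further gene, which is not reported here. Members, lists, tests and the naming rule were chosen with earlier results of these data known.

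Same-numbered libraries deviated together over all genes (every one of 4 pair correlations over 0.1) in C1 to C4 and EV against WT, at 0.150 to 0.742, so blocked fits are given there where they changed a call. This held in 2 of 4 pairs in C5 and C6 and in 1 of 4 in HCT116. Alternatives were other filters and pseudocounts, EV or both unedited lines as reference, line means, unequal variances, 1 joint fit, the replicate block and leaving out each library or clone. Leaving out the HCT116 clone replicate 3 or EV2 replicate 3, the same for the interaction and the HCT116 correlations, and the test of replicate number, were added after seeing the data. Promoters and positions come from RefSeq (GRCh38.p14) and GENCODE 44; Python 3.11.15, pandas 2.3.3, Biopython 1.88 and matplotlib 3.10.9 were used. 8 members had no promoter entry: *IFIT2*, *IFITM2*, *DHX58*, *MX2*, *OAS2*, *OASL*, *IRF7* and *USP18*.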

Additional observations from a re-analysis of the deposited data

Results flagged for a closer look

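In 81 groups of 4 libraries, the highest or lowest value of a member was set against the rest of its group. In 2 groups a library lay far from the others, where chance gives about 1 in 20 groups. Both concern *BST2*. EV replicate 3 had 97.3 FPKM where the other 3 EV libraries had 145.1 to 148.6. C2 replicate 2 had 55.3 FPKM where the other 3 C2 libraries had 121.6 to 134.8.

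The clone effect on *IFIH1* differed between the cell lines by an interaction test, with a HAP1 effect lower than the HCT116 effect by a difference of -0.845 on the log2 scale (SE 0.203, limma adjusted p = 0.0171). *IFIH1* averaged 0.896 FPKM over the HAP1 libraries and entered the test only through HCT116. The difference was -0.85 (limma adjusted p = 0.0145) without the HCT116 libraries numbered 3.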

How the results depend on the processing

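The 3 members called in the mean of the 6 HAP1 clones became 5 with a mean FPKM of at least 0.1, where *ISG15* lost its call and *IFIH1*, *OAS1* and *OAS2* entered. They became 5 against WT and EV together, 1 without C2 or without C5, and 0 over line means. Leaving out 1 library gave 1 to 3, with 1 without WT replicate 2, 3 or 4. Calls summed over C1 to C6 were 4, against 10 with the replicate block, 10 with EV as the reference, 13 in 1 fit of all 32 libraries and 0 with unequal variances, and 3 to 4 on leaving out 1 library. The 8 members that differed among lines became 13 with the replicate block and 7 to 9 on leaving out 1 library. In HCT116 the count of 0 became 2 without clone replicate 3 alone and 3 without all libraries numbered 3 (0 to 2 on leaving out 1 library). The 9 members that differed between cell lines stayed at 9 on leaving out any library. The EV count was 0 in all 18 alternatives. The median over members for the mean of the clones changed sign in 5 of 48 alternatives (-0.05 to 0.02), and in HCT116 it ran from 0.11 to 0.29.

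Single-gene differences were recomputed 855 times: 794 kept their direction and side of the threshold, 61 lost the call and 0 changed sign. *ISG15* in the mean of the clones lost its call in 26 of 48 alternatives (adjusted p from 0.00622 to 0.337), *STAT2* in 9 of 48, *IFIT5* in 2 of 48, and *BST2* in C5 in 9 of 39. The replicate block changed no other call in C1 to C3 or EV. With the block in the mean of the clones, adjusted p was 0.0156 for *ISG15*, 0.00128 for *IFIT5* and 0.00494 for *STAT2*. The cause of these changes was not tested, beyond fewer libraries or more genes tested. The depth behind the values is unknown, so differences among members near 0 could not be set against counting error.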
